A study of Mus musculus with 8 samples.

Results

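The inhibitors of DNA binding (Id1, Id2, Id3, Id4) and 6 genes of bone morphogenetic protein (BMP) signalling (Smad6, Smad7, Bambi, Bmp4, Bmpr1a, Bmpr2) were followed through 8 single-cell RNA-seq libraries of SN4741 cells. These 10 genes were taken by symbol from the 31053 genes of the deposited matrices, and all 10 were found in every library. SN4741 is described as a clonal line from the embryonic mouse substantia nigra, immortalized with a temperature-sensitive SV40 T antigen placed under the tyrosine hydroxylase promoter, and it is labelled as wild-type neural precursor cells. The paper reports an unstable, mostly triploid karyotype that varied from cell to cell. The part of gene copy number in the values below was not tested. The 4 libraries at 37 °C, the permissive temperature, came from undifferentiated cultures in 10% fetal bovine serum. The 4 libraries at 39 °C, the non-permissive temperature, came from cultures kept for 48 hours in 0.5% serum, so temperature and serum cannot be told apart in any comparison. The labels give no separate origin for the cultures of 1 temperature, so the p-values measure only the spread between these libraries, which may be technical.

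BMP ligands such as Bmp4 bind a complex of type I receptors (Bmpr1a) and type II receptors (Bmpr2), which phosphorylates SMAD1, SMAD5 and SMAD9, and these enter the nucleus together with SMAD4. The ID genes are classic early targets of this signal. ID proteins pair with basic helix-loop-helix (bHLH) factors such as the E proteins but lack a DNA-binding region, and in neural precursors they are known for holding back proneural factors. Smad6, Smad7 and the pseudoreceptor Bambi are feedback inhibitors of the same pathway.

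After filtering, 18351 of 19125 cells were kept, 985 to 3494 per library, with 17166686 to 29633818 UMIs (unique molecular identifiers, each standing for 1 captured RNA 3' end) per library. The 39 °C replicate 1 library had the fewest cells and the highest median, 16665 UMIs per cell against 6676 to 15413 in the others. Cells assigned to G1 made up 20.6% to 28.7% of a library at 37 °C and 82.5% to 85.4% at 39 °C, so the 10 genes were also tested within each phase. Of the 9 neural precursor markers, Vim, Nes and Sox2 were at 5396, 467 and 55.4 CPM (UMIs of a gene per 1000000 UMIs, summed over cells) at 37 °C and at 5166, 108 and 76.5 CPM at 39 °C, while Sox1, Pax6, Fabp7, Hes5 and Prom1 had at most 6 UMIs each over all 8 libraries. The summed level of the tested mesenchymal markers (8 of 10) was 2061 to 2121 CPM at 37 °C and 923 to 959 CPM at 39 °C, that of the immune markers (4 of 6) 15.6 to 18.5 and 26.5 to 34.0 CPM, and that of the endothelial markers (3 of 8) 0.72 to 1.23 and 1.23 to 1.65 CPM. The neuron markers (5 of 9 tested) were at a summed 164 to 197 CPM at 37 °C and 77.2 to 97.5 CPM at 39 °C. By the edgeR test given below, 0 of these were higher and 3 lower, against 31.5% and 30.5% of all genes tested. In G1 cells 3 were tested, with 0 higher and 2 lower, against 24.8% and 22.4% of genes. The glial markers (4 of 9) were at 7.23 to 8.16 and 8.86 to 9.27 CPM. Cdh5, Tie1, Cldn5 and Cd3e were at 0 UMIs. The part of these markers in the results below was not tested, and fewer expressing cells and less RNA per cell cannot be told apart in a summed level.

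At 39 °C, 8 of the 10 genes were higher, 1 was lower and 1 did not pass, in edgeR's quasi-likelihood test on summed counts at an adjusted p (Benjamini-Hochberg over 15810 genes) below 0.05. The change was broad in these cells: 31.5% of all genes tested were higher and 30.5% were lower by the same rule. The median log2 fold change of the 10 genes was 0.67, against 0.02 over all genes. The 37 °C and 39 °C libraries did not overlap for 9 of the 10, against 56.7% of all genes. At an adjusted p below 0.01 and a log2 fold change over 1.5, a size that 2.21% of genes passed upward, only Id4 was called.

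Id1, the family member most often used as a readout of BMP signalling, was at 312, 283, 315 and 283 CPM in replicates 1 to 4 at 37 °C and at 483, 506, 514 and 537 CPM at 39 °C. Every 39 °C library was above every 37 °C library, and the log2 fold change was 0.77 (SE 0.05, adjusted p = 2.5e-10). Id3 was at 401, 392, 402 and 379 CPM at 37 °C and at 556, 545, 548 and 573 CPM at 39 °C, a rise of 0.50 on the log2 scale (SE 0.05, adjusted p = 2.1e-08), with libraries of each temperature close together. Id2, which is widely used in neural and immune cells, rose by more. It was at 63.1, 53.3, 58.1 and 50.8 CPM at 37 °C and at 135, 152, 153 and 153 CPM at 39 °C, where replicate 1 was the lowest. The log2 fold change of Id2 was 1.40 (SE 0.06, adjusted p = 3.9e-13), or 2.64-fold (95% interval 2.41 to 2.89).

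Id4, a member linked to neural stem cell quiescence and astrocyte development, was the scarcest of the 4 and had the largest change. It was at 4.94, 5.85, 6.03 and 5.16 CPM at 37 °C, from 614 UMIs in all, and at 24.1, 17.6, 19.0 and 19.5 CPM at 39 °C, from 1933 UMIs. The 39 °C replicate 1 library was the highest, and the 4 values at 39 °C lay far above those at 37 °C. The log2 fold change was 1.86 (SE 0.09, adjusted p = 2.4e-12), or 3.62-fold (95% interval 3.16 to 4.15). UMIs of the 4 ID genes together were at 717 to 781 CPM at 37 °C and 1198 to 1282 CPM at 39 °C. Within that sum, Id3 took 51.3% to 53.3% of the UMIs at 37 °C and 44.4% to 46.4% at 39 °C, Id1 took 38.6% to 40.4% and 40.3% to 41.9%, Id2 took 7.08% to 8.09% and 11.3% to 12.5%, and Id4 took 0.63% to 0.80% and 1.44% to 2.01%. Id3 and Id1 thus held most of the family's UMIs at both temperatures, with the shares of Id2 and Id4 higher and that of Id3 lower at 39 °C.

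**Figure D1:**
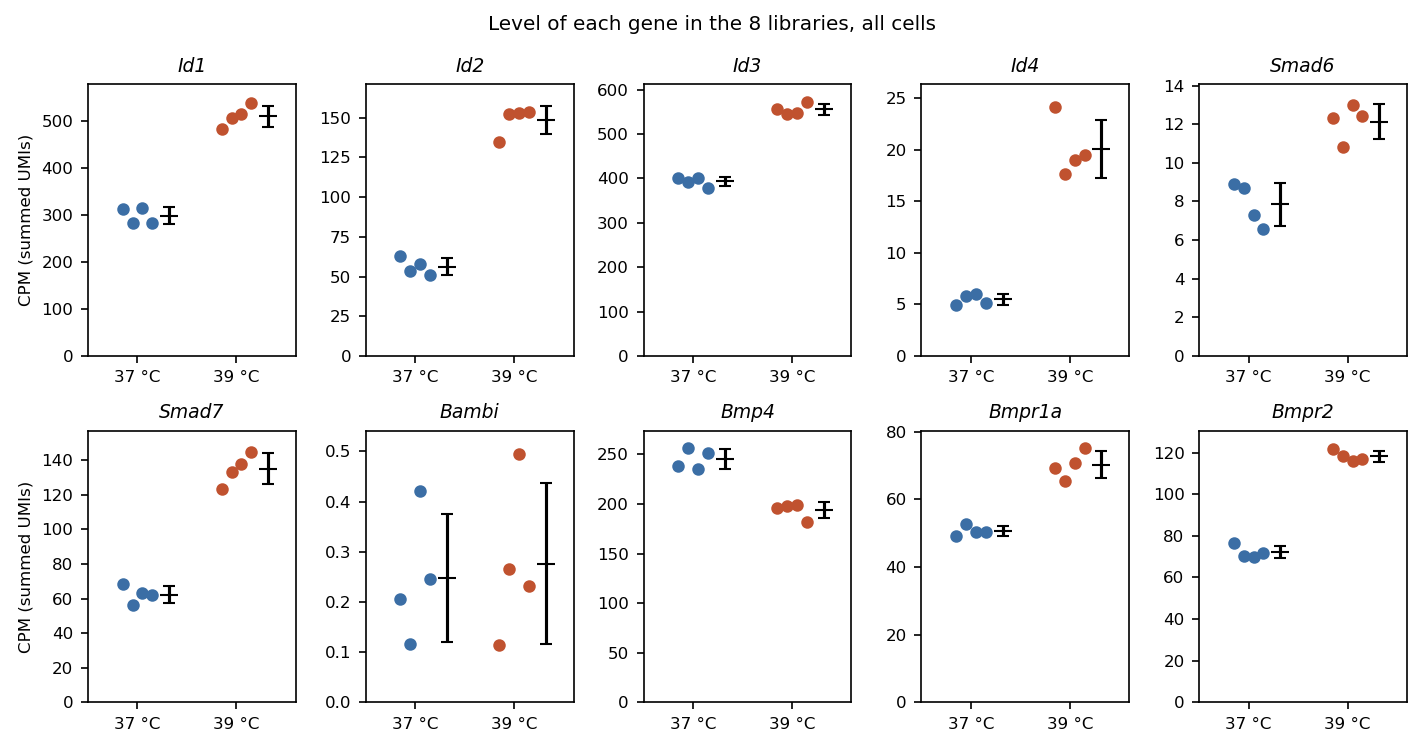
CPM of each of the 10 genes (vertical axes, linear from 0) in the 4 libraries at 37 °C (blue) and the 4 at 39 °C (red), replicates 1 to 4 from left to right, with the mean and SD in black. The colours do not overlap for any gene but Bambi, and Bmp4 is the only one of the other 9 with the 39 °C libraries below.

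The feedback inhibitors differed among themselves. Smad7, which blocks receptor access for both BMP and TGF-beta SMADs, was at 68.2, 56.3, 63.0 and 61.9 CPM at 37 °C and at 124, 133, 138 and 145 CPM at 39 °C. Every 39 °C library was well above every 37 °C library, with a log2 fold change of 1.11 (SE 0.06, 95% interval 0.99 to 1.24, adjusted p = 4.3e-12). Smad6, which acts mainly on the BMP branch, was much scarcer, at 8.88, 8.68, 7.29 and 6.57 CPM at 37 °C and 12.3, 10.8, 13.0 and 12.4 CPM at 39 °C. Its groups did not overlap, and its log2 fold change was 0.63 (SE 0.09, adjusted p = 5.9e-06). Bambi was close to absent, with 28 UMIs at 37 °C and 29 at 39 °C over all cells. Its libraries overlapped at 0.12 to 0.42 CPM and 0.11 to 0.50 CPM, and the log2 fold change of 0.23 had a 95% interval from -0.71 to 1.17 (adjusted p = 0.68), so a difference was not detectable at this depth; without 39 °C replicate 3 its estimate was -0.22.

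Bmp4, the ligand, was the only one of the 10 that fell. It was at 239, 257, 236 and 251 CPM at 37 °C and at 196, 198, 199 and 182 CPM at 39 °C, with every 39 °C library lower. The log2 fold change was -0.34 (SE 0.05, adjusted p = 4.7e-06). Both receptors rose. The type I receptor Bmpr1a was at 49.2, 52.6, 50.4 and 50.2 CPM at 37 °C and at 69.3, 65.5, 70.9 and 75.1 CPM at 39 °C, a log2 fold change of 0.47 (SE 0.05, adjusted p = 6.4e-08). The type II receptor Bmpr2 was at 76.4, 70.4, 70.0 and 71.8 CPM at 37 °C and at 122, 118, 116 and 117 CPM at 39 °C, a log2 fold change of 0.71 (SE 0.04, adjusted p = 5.9e-11). Within each temperature both receptors varied little between libraries.

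For 7 of the 10 genes, a window of 250 bases before the start listed in the RefSeq promoter table (build GRCm38.p6) was read. By the GENCODE M21 annotation the windows of Id4, Smad6 and Bmp4 held 0 exonic bases, while those of Id2, Id3, Bmpr1a and Bmpr2 held 161, 250, 141 and 250, so these 4 windows lie wholly or partly in annotated exons. The letters GGCGCC, the core of known SMAD1/5 sites in BMP-responsive elements, were present in 4 of the 7 windows (Id2, Id4, Bmpr1a and Bmpr2), of which only that of Id4 was free of exonic bases, against 9.59% of 32851 windows of that length and 26.5% of the 8862 windows over 60% GC. All 7 windows were over 60% GC, at 62.8% to 78.8%, against a median of 52.4%. The E-box CANNTG, the kind of site bound by bHLH factors, was found once in Id2 and 3 times in Bmp4, with none in the other 5, against 66.2% of all windows and 51.4% of those over 60% GC. The SMAD letters CAGACA, searched on both strands, were in 0 of the 7, against 17.1% of all windows and 10.6% of those over 60% GC. GGCGCC and CANNTG read the same on both strands, and no matches overlapped. The windows of Id4, the largest rise, and Bmp4, the one fall, are shown 5′ to 3′ on the gene's strand, from chr13:48260866-48261115 on the plus strand and chr14:46390670-46390919 on the minus strand, with GGCGCC and CANNTG matches in capitals.
Id4: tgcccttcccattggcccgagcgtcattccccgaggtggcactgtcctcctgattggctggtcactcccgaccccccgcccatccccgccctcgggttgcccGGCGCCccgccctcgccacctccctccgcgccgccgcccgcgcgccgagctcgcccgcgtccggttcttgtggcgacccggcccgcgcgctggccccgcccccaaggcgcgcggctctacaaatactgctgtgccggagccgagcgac
Bmp4: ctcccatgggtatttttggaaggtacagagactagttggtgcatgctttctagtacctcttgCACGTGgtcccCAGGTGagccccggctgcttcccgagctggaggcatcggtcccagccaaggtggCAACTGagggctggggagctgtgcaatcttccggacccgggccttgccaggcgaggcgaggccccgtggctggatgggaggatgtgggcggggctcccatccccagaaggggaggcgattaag
In Id4 the GGCGCC began 148 bases before the RefSeq start. In Bmp4 the 3 E-boxes began 188, 177 and 123 bases before it, and these letters are a description of the window, not evidence of binding.

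Because the 2 temperatures differed so much in their phase mix, the same genes were tested within each assigned phase. In G1 cells 7 of the 10 genes rose and 1 fell, against 24.8% and 22.4% of 14712 genes. In S cells 8 rose and 1 fell, against 20.1% and 23.4% of 13740 genes. In G2M cells 7 rose and 1 fell, against 13.2% and 16.5% of 13802 genes. The order of the changes was much as in all cells: within G1 the log2 fold change was 1.73 (SE 0.14) for Id4, 1.47 (SE 0.07) for Id2, 1.07 (SE 0.06) for Smad7, 0.59 (SE 0.06) for Id1, 0.54 (SE 0.05) for Bmpr2, 0.42 (SE 0.06) for Bmpr1a and 0.26 (SE 0.06) for Id3. Id3 had a log2 fold change of 0.50 in all cells and 0.26 in both G1 and G2M cells, beside its higher level in G1 cells at 37 °C. Over the alternatives given below, the Id3 value ranged from 0.23 to 0.31 in G1 cells and from 0.22 to 0.45 in G2M cells. With a library left out the G2M value was 0.22 to 0.28, so its likeness to the G1 value depended on the processing. Bmp4 moved the other way: its log2 fold change was -0.34 in all cells and -0.66 (SE 0.06) in G1 cells, where its level at 37 °C was highest.

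The call of Smad6 depended on the phase tested and on the processing. Its log2 fold change was 0.24 in G1 cells (95% interval 0.02 to 0.47, adjusted p = 0.067), 0.50 in S cells (adjusted p = 0.012) and 0.37 in G2M cells (95% interval -0.18 to 0.92, adjusted p = 0.34), all by the edgeR test. The G1 value passed without 37 °C replicate 2 (0.33, adjusted p = 0.023) and without 39 °C replicate 2 (0.30, adjusted p = 0.029), and it was 0.47 (adjusted p = 0.0023) with phases scored library by library. In all, it passed under 5 of 19 alternatives. The G2M value of Smad6 ranged from 0.23 to 0.60 over 19 alternatives and passed under 1 of them. In G2M cells, where the 39 °C libraries held only 29 to 187 cells each, Id3 no longer passed without 39 °C replicate 4 (0.22, adjusted p = 0.051), and Bmpr1a no longer passed without 39 °C replicate 3 (0.28, adjusted p = 0.091). Bambi had 0 UMIs in the G2M cells of all 4 libraries at 39 °C and passed in no phase.

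**Figure D2:**
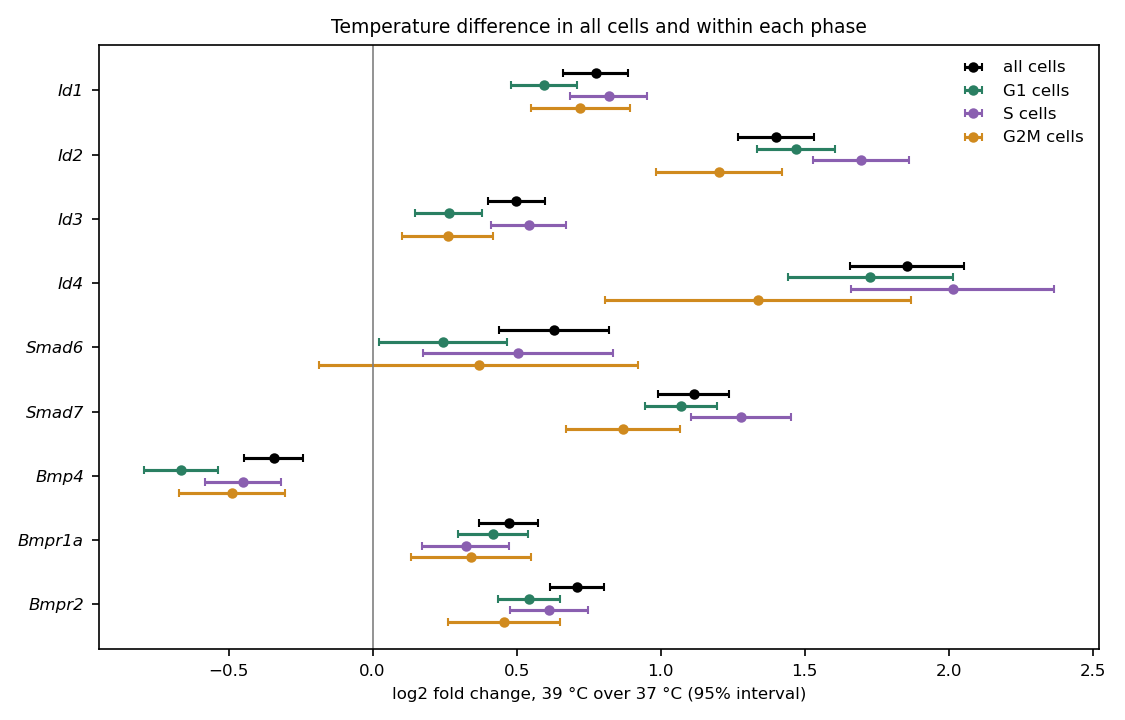
log2 fold change of 39 °C over 37 °C (horizontal axis) with its 95% interval for 9 genes, in all cells (black) and in G1 (green), S (purple) and G2M cells (orange). Id4, Id2 and Smad7 lie furthest to the right in each set, Bmp4 lies below 0 in all 4, and the G2M interval of Smad6 spans 0.

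The levels in each phase were also placed on one scale, by summing counts per library and phase and scaling the 24 sums together. At 37 °C, Id3 was at 448 to 531 CPM in G1 cells, 347 to 385 CPM in S cells and 381 to 397 CPM in G2M cells, and G1 was the highest phase in 4 of 4 libraries. Id1 likewise was higher in G1 (326 to 368 CPM) than in S (272 to 314 CPM) in 4 of 4 libraries at 37 °C, but in only 2 of 4 at 39 °C, where it was at 487 to 539 CPM in G1 and 482 to 564 CPM in S. Bmp4 was highest in G1 in all 8 libraries, at 287 to 364 CPM at 37 °C and 187 to 205 CPM at 39 °C. Id2 and Smad7 had another order at 37 °C, with G2M above G1 and G1 above S in 4 of 4 libraries. Id2 was there at 60.6 to 75.7 CPM in G2M, 50.7 to 63.0 CPM in G1 and 41.5 to 53.7 CPM in S cells.

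Whether the temperature difference itself differed between phases was tested with an interaction term and the library as a block. Between S and G1 cells it differed for 5 of the 10 genes, against 9.95% of 14172 genes tested. The difference was 0.31 higher on the log2 scale in S than in G1 for Id3 (SE 0.05, adjusted p = 5.7e-07), 0.26 for Id1 (SE 0.05, adjusted p = 1.3e-05), 0.25 for Bmp4 (SE 0.06, adjusted p = 0.0037), 0.25 for Id2 (SE 0.08, adjusted p = 0.032) and 0.24 for Smad7 (SE 0.07, adjusted p = 0.024). For Bmp4 this means a smaller fall in S cells, and for the other 4 a larger rise. Id1, Id3 and Bmp4 passed without any 1 of the 8 libraries. Id2 lost its call without 37 °C replicates 1 or 4 or 39 °C replicates 2 or 3 (adjusted p = 0.16, 0.13, 0.089 and 0.16), and Smad7 without any of 6 libraries, all but replicate 3 at 37 °C and replicate 1 at 39 °C (adjusted p = 0.053 to 0.14). Between G2M and G1 cells only Id1 passed (0.17, SE 0.05, adjusted p = 0.036), against 7.06% of genes, and it lost its call without 37 °C replicates 1, 2 or 3 or 39 °C replicates 3 or 4 (adjusted p = 0.10, 0.13, 0.080, 0.24 and 0.28).

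**Figure D3:**
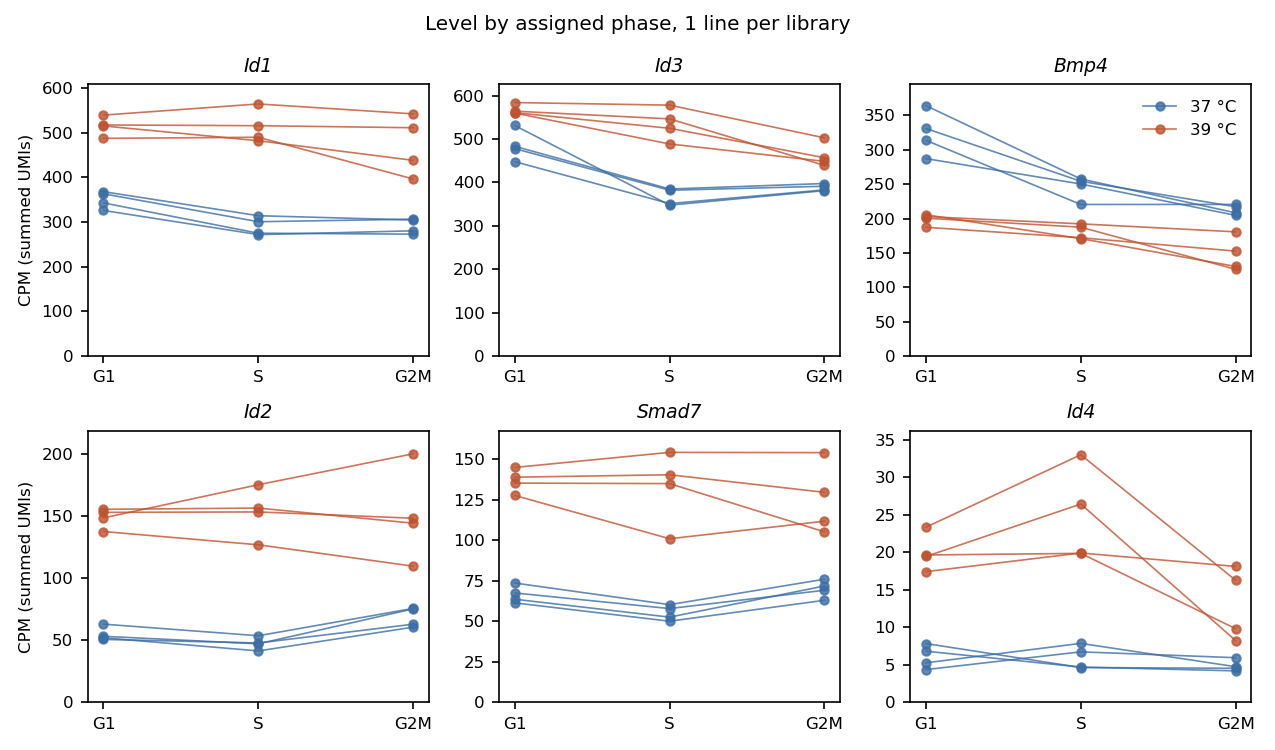
CPM (vertical axes, from 0) of 6 genes in the cells assigned to G1, S and G2M, with 1 line per library at 37 °C (blue) and 39 °C (red). For Id1, Id3, Id2, Smad7 and Id4 the red lines stay above the blue ones in every phase; for Bmp4 they stay below, and the gap is widest in G1.

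To compare single cells at equal depth, each cell was thinned to 3000 UMIs, which left out 215 shallower cells at 37 °C and 579 at 39 °C. At that depth Id3 had a UMI in 59.0% to 62.1% of cells at 37 °C and 68.0% to 69.7% at 39 °C, and Id1 in 51.5% to 56.8% and 65.4% to 73.4%. Id2 was seen in 13.9% to 16.6% of cells at 37 °C and in 30.7% to 35.2% at 39 °C. Id4 was seen in 1.36% to 2.29% and in 4.75% to 8.27%. Within thinned G1 cells the shares of Id3 overlapped between temperatures, at 64.5% to 70.9% and 68.5% to 69.8%, while those of Id2 did not, at 14.1% to 16.9% and 31.1% to 35.8%. The unthinned shares were higher, for Id1 a mean of 86.5% at 37 °C and 90.2% at 39 °C, and for Id3 they had the other order, 89.4% and 87.5%, beside median depths of 9839 to 15413 UMIs per cell at 37 °C and 6676 to 9886 in 3 of the 4 libraries at 39 °C. No cell type that should lack these genes was among the cells, so no background share could be given from one; Bambi, at 0% to 0.24% of cells, was the lowest of the 10.

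Smad7 was seen in 15.6% to 18.3% of thinned cells at 37 °C and 29.0% to 34.0% at 39 °C, Smad6 in 1.90% to 2.47% and 3.09% to 4.34%. In thinned G1 cells the shares of Smad6 overlapped, at 2.06% to 3.39% and 3.32% to 4.34%. The receptors were seen in 13.6% to 15.2% and 17.4% to 19.1% of cells for Bmpr1a, and in 19.5% to 21.1% and 28.5% to 32.1% for Bmpr2. Bmp4 was seen in 43.8% to 46.9% of cells at 37 °C and in 37.6% to 39.4% at 39 °C, with 1.59 to 1.65 UMIs per positive cell at 37 °C and at most 1.53 at 39 °C. In cells with a UMI, Id1 had 1.77 to 1.86 UMIs at 37 °C and 2.20 to 2.35 at 39 °C, so for Id1 both the share and the count per positive cell were higher. Id1, Id3 and Bmp4 were spread more unevenly than counting alone gives: the Fano factor (variance over mean, 1 for counting noise) was 1.71 to 2.44 for Id3, 1.51 to 2.05 for Id1 and at least 1.38 for Bmp4 over the 8 libraries. For Id4 it was 0.98 to 1.16 at 37 °C and 1.26 to 1.94 at 39 °C, while for Smad6 it lay between 0.96 and 1.04. Both genes were seen in few thinned cells. With so few UMIs a value near 1 cannot tell an even spread from an uneven one, so no difference in evenness is drawn from these values.

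At 39 °C, more thinned cells had UMIs of several ID genes. UMIs of at least 2 of the 4 ID genes were seen in 40.1% to 44.9% of thinned cells at 37 °C and 61.9% to 65.2% at 39 °C, and none of the 4 in 16.9% to 20.1% and 7.88% to 10.3%. At 37 °C, Id3 was seen in 64.3% to 67.6% of thinned cells with an Id1 UMI and 52.8% to 56.2% of those without one. At 39 °C the shares were 71.7% to 75.2% and 58.3% to 61.9%. Thinned cells with an Id1 UMI thus had an Id3 UMI more often in each of the 8 libraries, though most of those without an Id1 UMI had one too. A thinned cell without a UMI may still express the gene, as the unthinned shares of Id1 were higher.

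Across cells within a library, the strongest pair among the 10 genes was Id1 and Id3. The Pearson correlation of log2(1 + UMIs) in thinned cells was 0.22, 0.20, 0.19 and 0.17 in replicates 1 to 4 at 37 °C and 0.23, 0.22, 0.21 and 0.26 at 39 °C, over 967 to 3128 cells of 1 library each. These are weak values, in counts of a few UMIs per cell, and at 5000 UMIs per cell the means were 0.25 and 0.31. Of the 5958 genes seen in at least 5% of thinned cells in every library, members aside, 0 had a higher mean correlation with Id1 than Id3 did, and the median gene had 0.0005. Id2 had a mean of 0.13 with Id3 (0.09 to 0.17) and 0.10 with Id1 (0.07 to 0.14), and 0 of those genes were above either value in their correlation with Id2. From the other side, 6 of those genes were above Id2 in their correlation with Id3, and 1 was above it with Id1. Among the 36 pairs of 9 genes (Bambi left out), the 3 pairs of Id1, Id2 and Id3 were the only ones with a mean over 0.1.

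**Figure D4:**
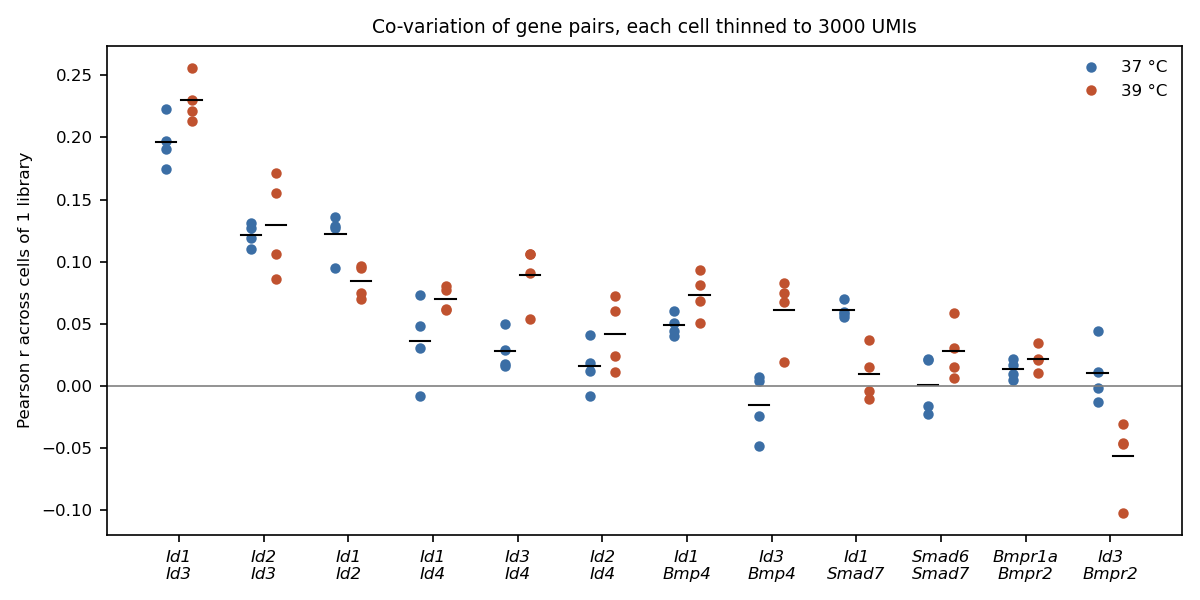
Pearson correlation across the cells of 1 library (vertical axis) for 12 gene pairs, 4 libraries at 37 °C (blue) and 4 at 39 °C (red), with the mean of each temperature as a black line. The 3 pairs of Id1, Id2 and Id3 are the highest. Most pairs with Bmp4, the SMADs and the receptors scatter around or just above 0. Id3 and Bmpr2 have a mean of 0.01 at 37 °C and -0.06 at 39 °C.

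Id4 joined the others weakly. Its correlation with Id3 had a mean of 0.03 at 37 °C and 0.09 at 39 °C, where more cells had an Id4 UMI. Of the same 5958 genes, 3 had a higher mean correlation with Id4 than Id3 did, 7 than Id1 and 64 than Id2. Bmp4 had 0.04 to 0.09 with Id1 in the 8 libraries, while its correlation with Id3 ranged from -0.05 to 0.08. The mean of Bmp4 with Id3 was -0.015 at 37 °C and 0.061 at 39 °C. Smad6 and Smad7 ranged from -0.02 to 0.06 and the receptors with each other from 0.005 to 0.03, and 30 of the 36 pairs had a mean below 0.05 in size. No pair was negative in all 8 libraries, and 7 were positive in all 8. These values are a description of cells that share a library, and in counts this sparse the weak ones carry no finding.

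Outside the 10 genes, those most like Id1 across cells were mt-Co3, a mitochondrially encoded oxidase subunit (mean correlation 0.11 over 8 libraries), Ier2, an immediate early gene (0.10), and Malat1, an abundant nuclear RNA (0.10). For Id2 they were mt-Co3 (0.09), mt-Co1 (0.08) and Tnfsf9, a TNF family ligand (0.07). For Id3 they were Malat1 (0.17), Cdkn2a, a cell cycle inhibitor (0.16), and Anxa5, an annexin (0.15). Mitochondrial and nuclear RNA also vary with cell quality, with a median mitochondrial share of 7.55% to 7.89% of UMIs at 37 °C and 8.04% to 8.85% at 39 °C, and their part in these correlations was not tested.

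The rest of the pathway was read in lists of its parts, whose counts stand against 31.5% of all genes higher and 30.5% lower in all cells, and 24.8% and 22.4% in G1 cells. Of 12 other BMP ligands, 8 were tested, 4 rose and 2 fell; in G1 cells 3 of 7 rose and 1 fell. Bmp2, a close relative of Bmp4, was at 5.58 ± 0.93 CPM (mean and SD of the 4 libraries, as in the rest of these lists) and rose to 20.5 ± 1.2 CPM, with a log2 fold change of 1.88 (adjusted p = 6.4e-13). Bmp8a rose by 1.76 and Gdf6 by 1.37. Within G1 cells the log2 fold changes of Bmp2 and Gdf6 were 1.04 and 0.44. Bmp4 at 194 CPM was the ligand of this family with the most UMIs at 39 °C. The median log2 fold change was 0.92 over the 8 in all cells and 0.44 over the 7 in G1 cells.

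Of 11 other receptors and co-receptors, 9 were tested and 8 rose, with 0 falls and a median log2 fold change of 0.83, against 31.5% of all genes higher. In G1 cells 6 of the 9 rose and 0 fell, with a median of 0.66, against 24.8%. The type I receptor Acvr1 rose from 23.6 ± 1.3 to 43.4 ± 1.8 CPM (log2 fold change 0.88), the type II receptor Acvr2b by 1.04 and the co-receptor Rgmb by 0.83. The other type I receptor Bmpr1b had 3 UMIs at 37 °C and 1 at 39 °C. Of the 4 BMP SMADs, Smad5, Smad4 and Smad1 rose by 0.53, 0.42 and 0.39, and Smad9 was at 1.30 and 1.61 CPM without passing (adjusted p = 0.11). All 3 rises were of like size within G1 cells, at 0.48, 0.45 and 0.40.

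The secreted antagonists, which trap ligands outside the cell, did not move one way. Of 16, 11 were tested, 5 rose and 4 fell, beside 31.5% and 30.5% of all genes, with a median log2 fold change of 0.12. Grem1 rose from 2.92 ± 1.36 to 15.1 ± 0.7 CPM (log2 fold change 2.37, and 0.91 in G1 cells) and Nbl1 from 20.2 ± 0.8 to 45.1 ± 1.4 CPM (1.16), while Nog, which encodes noggin, fell from 12.3 ± 1.2 to 6.35 ± 0.33 CPM (-0.95) and Bmper by 0.44 on the log2 scale. Fst, which encodes follistatin and had the most UMIs of the list, was at 372 and 404 CPM and did not pass (adjusted p = 0.073). In G1 cells 3 rose and 5 fell, with a median of 0.02.

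Of 15 intracellular regulators of SMADs, all 15 were tested, 13 rose and 1 fell, both in all cells (31.5% and 30.5% of all genes) and in G1 cells (24.8% and 22.4%). The corepressor Tgif1 rose from 25.2 ± 2.1 to 62.6 ± 4.7 CPM (log2 fold change 1.31), the corepressor Skil by 0.69 and the ubiquitin ligase Smurf1 by 0.69. Tgif2 fell by 0.90. The list's median was 0.47 in all cells and 0.29 in G1 cells. Of 12 other BMP-induced genes, 9 were tested, 4 rose and 1 fell, against 31.5% and 30.5% of all genes, with a median of 0.20. Atoh8 rose from 13.4 ± 1.7 to 27.1 ± 1.2 CPM (log2 fold change 1.01) and Msx2 by 1.22, while Msx1 fell by 0.27 and Runx2 rose by 0.20. Within G1 cells 2 of the 9 rose, against 24.8% of all genes, with a median of 0.11, and Runx2 had 0.05 (adjusted p = 0.52).

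**Figure D5:**
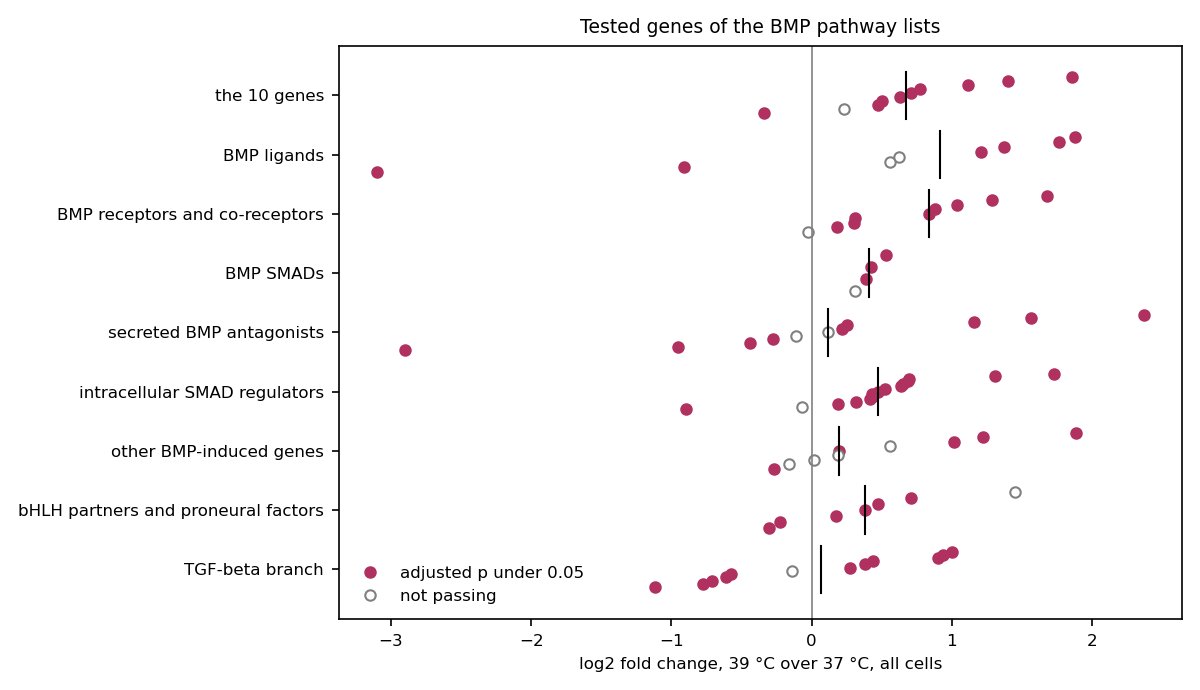
log2 fold change of 39 °C over 37 °C in all cells (horizontal axis) for each tested gene of the BMP lists, 1 row per list, with filled points for an adjusted p below 0.05, open points for the rest and a black line at the list's median. Receptors, SMADs and intracellular regulators lie mostly to the right of 0, and ligands, antagonists and the TGF-beta branch lie on both sides.

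The E protein partners of the ID proteins were measured throughout, while UMIs of the proneural factors were absent or nearly so. Of 20 genes in this list 7 were tested, 4 rose and 2 fell, against 31.5% and 30.5% of all genes, and in G1 cells 3 rose and 0 fell. The E protein genes Tcf4 and Tcf12 rose by 0.38 and 0.17, to 262 and 185 CPM, and Tcf3 fell by 0.30, to 50.1 CPM. In G1 cells Tcf3 had -0.08 (adjusted p = 0.31). Hes1, a repressor downstream of Notch, rose from 119 ± 22 to 195 ± 56 CPM (log2 fold change 0.71, adjusted p = 0.0002). The proneural genes Neurog1, Neurod1, Neurod2 and Atoh1 had 0 UMIs in all 8 libraries, where a count of 0 allows up to 0.0265 CPM over the 37 °C libraries and 0.0308 CPM over the 39 °C libraries, and Neurog2 had 1 and 2 UMIs.

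The TGF-beta branch, which shares Smad4 and Smad7 with the BMP branch, was mixed. Of 14 genes 12 were tested, 6 rose and 5 fell, against 31.5% and 30.5% of all genes, with a median of 0.07. In G1 cells 4 rose and 5 fell, with a median of -0.01. The ligand Tgfb2 fell from 162 ± 10 to 74.9 ± 2.7 CPM (log2 fold change -1.12) and Ltbp1 by 0.77. The receptor Tgfbr1 rose by 1.00, Smad3 by 0.93 and Tgfb1 by 0.44.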

How the data were processed

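Droplet libraries, 4 per temperature, were made with Chromium 3' V3 reagents. The authors aligned reads to mm10 with Cell Ranger 3.0.1 and deposited UMI counts per gene and cell, without normalization. Groups and replicate numbers came from the sample titles. Following the study's limits, cells were dropped for a mitochondrial share over 15% (334), for more than 6000 genes (440) or for fewer than 200 (29). Doublets were handled by the upper gene limit alone. At most 5 barcodes were shared by any 2 libraries, and no pair of the same temperature agreed within sampling noise (chi-square over its degrees of freedom 2.85 to 21.4). Phases came from Seurat 5.3.0 (CellCycleScoring), with 42 of 43 S and 52 of 54 G2M genes found, and none of the 10 genes is among them.

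Counts were summed per library, over all cells or those of a phase, and genes averaging 1 count or more over the libraries were tested with edgeR 4.0.16 (R 4.3.3; TMM, glmQLFit, glmQLFTest) on temperature alone. The interaction fit used 24 sums of library and phase with library as a block. Standard errors are the fold change over the square root of F. In simulated counts like those of all cells (15616 genes), 200 of 200 genes changed by 2 on the log2 scale were recovered, with 12 false calls. CPM are per 1000000 UMIs with TMM-scaled totals. Thinning, correlations and promoter searches used Python 3.11.15, numpy 2.4.6 and scipy 1.17.1. UMIs count transcript 3' ends and were not divided by length. Intervals and floors (3 counts) over UMIs cover counting error only.

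The 10 genes, the lists and the tests were chosen with earlier results of these data known. Besides the 10, genes were named by rule: per list, up to 3 each way with the largest log2 fold change among those passing at 5 CPM or more in the higher group, and the 3 genes most correlated with each of Id1, Id2 and Id3. Certain genes of the lists are not reported here by name, while the counts and medians over lists include all members. Exceptions, named after their values were seen, are Bmpr1b, Smad9, Fst, Tcf12, Neurog2 and the genes given at 0 UMIs or as marker checks. Alternatives were other scalings (RLE, upper quartile, totals only), other low-count filters (filterByExpr, none), DESeq2 1.42.0, a replicate block, other cell filters (none, no upper gene limit, 10% mitochondrial), phases scored per library, each library left out, and for single cells 5000 UMIs, no thinning, G1 cells and rank correlation.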

Additional observations from a re-analysis of the deposited data

Results flagged for a closer look

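In 92 checks of 4 libraries each (levels, shares of cells and the Id1 and Id3 correlation), 2 had 1 library far from the other 3, where chance alone gives about 1 in 20. The Id2 level in 39 °C replicate 1 was 135 CPM against 152 to 153 CPM in the other 3, and the share of thinned cells with an Id4 UMI in the same library was 8.27% against 4.75% to 5.33%. In all cells the log2 fold change ranged over every alternative from 1.35 to 1.44 for Id2 and from 1.76 to 1.91 for Id4. The fit without 39 °C replicate 1 is among those alternatives.

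The temperature difference was larger in S than in G1 cells for Id1 (by 0.26 on the log2 scale), Id3 (0.31), Id2 (0.25) and Smad7 (0.24), and the fall of Bmp4 was smaller in S than in G1 cells, by 0.25. For Id1 it was also larger in G2M than in G1 cells, by 0.17. These 6 were picked out by the interaction test.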

How the results depend on the processing

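In all cells, 9 of the 10 genes passed, in the same direction, under each of the 18 alternatives, and Bambi under none; its estimate of 0.23 ranged from -0.22 (without 39 °C replicate 3) to 0.60 (without 37 °C replicate 3). The numbers of genes passing and called there ranged from 9073 to 9939 and from 696 to 971, with the fewest passing under DESeq2 and the fewest called under filterByExpr, which also left Bambi untested. Within phases the calls of Id1, Id2, Id4, Smad7, Bmp4 and Bmpr2 stood under every alternative, and Smad6 lost its S call with a 10% mitochondrial limit (0.42, adjusted p = 0.075), as Bmpr1a lost its G2M call (0.29, adjusted p = 0.072). The Bambi estimate in G2M cells was 0.13 with phases scored per library. For G2M against G1, the count of genes was 2 under RLE scaling, 4 with phases scored per library and 0 to 2 with a library left out, so it rests on phase scoring and on single libraries. With phases scored per library the estimates there turned sign for Id4 (0.58), Bambi (0.40), Bmpr1a (0.042) and Bmpr2 (0.080), as they did with a library left out for Id3 (-0.022 without 37 °C replicate 2, up to 0.061) and Bmpr2 (0.0055 without 39 °C replicate 3, down to -0.15), and the cause was not tested. For S against G1 the count was 3 to 5 with a library left out. The mean correlation of Id1 and Id3 at 37 °C was 0.23 in G1 cells, 0.25 at 5000 UMIs and 0.33 unthinned, against 0.20 in the main setting. At 39 °C it was 0.31 at 5000 UMIs and 0.39 unthinned, against 0.23. Unthinned cells also differ from each other in depth, and the part of depth in these values was not tested.

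The deviations of same-numbered libraries had correlations of -0.11, -0.08, -0.07 and 0.20. Those of libraries with unlike numbers ranged from -0.23 to 0.22. The numbers were therefore not used to pair libraries in the main fits, and these values cannot tell whether such libraries shared a day of culture or capture. With the replicate number as a block, 9617 genes passed and 878 were called in all cells, 6778 passed in G1 cells, and 9, 8, 9 and 8 of the 10 genes passed in all, G1, S and G2M cells.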

Other observations

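Across cells, the genes most like Bmp4 were Timp3, an inhibitor of matrix proteases (mean correlation 0.22, 0.18 to 0.25 over the 8 libraries), Aqp5, a water channel (0.17), and Tspan8, a tetraspanin (0.17). These were closer to Bmp4 than any of the other 9 genes was, the closest being Id1 at 0.06. For Id4 the closest gene was Spp1, which encodes osteopontin (0.10), and for Smad7 it was Pmepa1, another inhibitor of the TGF-beta branch (0.06). These genes were read after their values were seen and no test was run on them.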
